A study of Mus musculus with 6 samples.

Results

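Genes whose symbols begin with Kcn encode the pore-forming and accessory subunits of potassium channels. In the 6-month corneal epithelium data they made up 80 of the 17866 genes in the table, and every row with such a symbol was taken. Each of the 80 had at least some estimated counts, 60 were detected with more than 3 counts in at least 1 library, and the remaining 20 stayed at or under 3 counts in every library. A filter on low counts left 33 of them for testing, so 27 were detected but not tested.

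The libraries were bulk RNA-seq of the separated corneal epithelium of C57BL/6 mice aged 6 months, 3 labelled WT and 3 labelled Rela-/- (KO), and each came from an independent biological sample. In the study, the KO animals lost Rela, which encodes the p65 subunit of NF-κB, through a floxed allele and Krt14-Cre. That driver is active wherever K14 is expressed, so skin and other surface epithelia of the same animals are targeted as well as the cornea. Since RNA of the whole layer was measured, fewer cells of a type cannot be told apart here from less RNA per cell. In the study, KO mice lost the epithelium of the central cornea before this age. A new, keratinized and skin-like epithelium had formed there by 6 months. Loss of Rela and this change of tissue cannot be told apart in these libraries. The comparison of the genotypes asks how the transcriptome of the sampled epithelial layer differs between WT and KO at this age.

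Potassium channels let potassium leave the cell along its gradient, and so set the membrane potential. Their families differ in what opens them. Voltage-gated channels respond to depolarization, and inward rectifiers pass current more readily inward than outward. Tandem-pore channels carry a background leak, and a further group opens with intracellular calcium or sodium. In epithelia such as that of the cornea these channels are known for their part in ion and fluid transport and in the control of cell volume.

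The libraries held between 20158404 and 20880347 estimated counts, so that 3 counts equalled 0.137 to 0.152 CPM (counts scaled by TMM to a common library size of 1000000). Such a floor covers counting error only. Rela itself had counts of 1871, 1844 and 1855 in WT against 318, 223 and 313 in KO, a difference of -2.60 on the log2 scale. The summed CPM of 5 corneal epithelial markers (Krt12, Pax6, Aldh3a1, Tkt and Krt5) lay between 91450 and 94810 in WT and between 21190 and 23780 in KO, and all 5 fell. The 5 epidermal markers (Krt1, Krt10, Lor, Krtdap and Flg) summed to between 15.1 and 20.3 CPM in WT and between 11560 and 23960 CPM in KO, and all 5 rose. The 4 markers of conjunctiva and goblet cells also rose. Their sum lay between 1755 and 2754 CPM in WT and between 51940 and 66740 CPM in KO. Most of that sum was Krt13 (mean 1972 CPM in WT and 38250 CPM in KO) and, in KO, Krt4 (148.6 and 21750 CPM). Agr2 averaged 1.39 and 5.23 CPM. Muc5ac was at 0 in every WT library and averaged 6.19 CPM in KO. These shifts move with every genotype difference given here, and their part in those differences was not tested.

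The selectivity filter is the part of the protein that the members of these families have in common. It is a short loop in the pore whose backbone coordinates the potassium ion, and its codons are shown here for some of the channels that rose or fell. In the coding sequences of GENCODE M21 (GRCm38) a filter was found in all 26 tested pore-forming and silent subunits. The capitals mark the 5 codons of the filter within a stretch of 27 coding bases, read 5′ to 3′ on the coding strand. In 7 of the 26 genes the 27-base stretch around the first or only filter spans an exon junction. These are Kcnd3 and all 6 tandem-pore genes, and these stretches are not shown. The voltage-gated pore subunits come first.
Kcnh6, chr11:106019070-106019096, plus strand: ctcactAGTGTGGGCTTCGGCaatgtg
Kcnh1, chr1:192337748-192337774, plus strand: ctcaccAGTGTGGGCTTTGGTaacatt
Kcnh3, chr15:99232923-99232949, plus strand: ctcaccAGTGTGGGCTTCGGCaacgtg
Kcnc2, chr10:112456223-112456249, plus strand: atgactACCTTAGGTTACGGGgatatg

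The silent subunits and the inward rectifier shown have a tyrosine codon (TAT or TAC) at the centre of the filter, as does Kcnc2.
Kcng3, chr17:83587908-83587934, minus strand: atgactACAGTTGGCTATGGAgatatg
Kcnv1, chr15:45109283-45109309, minus strand: atgactACAGTAGGATATGGGgacatt
Kcnj2, chr11:111072201-111072227, plus strand: cagacaACCATTGGCTATGGTttcagg

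Kcnu1 and the second loop of the tandem-pore channels, which carry a pair of pore loops per subunit, differ at that codon.
Kcnu1, chr8:25881384-25881410, plus strand: atgtcaACTGTTGGCTTTGGGgacgtg
Kcnk6, chr7:29225530-29225556, minus strand: ctgtccACCATTGGCCTAGGGgactac
Kcnk1, chr8:126025323-126025349, plus strand: ctgagcACCATCGGCCTGGGGgactat
Kcnk7, chr19:5706375-5706401, plus strand: ctcagcACGATCGGCCTAGGAgacttg
In the first or only loop, 20 of the 26 genes have a tyrosine codon at the centre and 6 have phenylalanine (the 4 Kcnh genes, Kcnk13 and Kcnu1). In the second loop, Kcnk1, Kcnk6 and Kcnk7 have leucine there, while Kcnk4, Kcnk5 and Kcnk13 have phenylalanine.

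Of the 33 tested genes, 19 passed at an adjusted p below 0.05 (57.6%), 14 of them higher and 5 lower in KO. Among all 13305 genes tested the same test called 62.0%, with 31.8% higher and 30.2% lower, so the share of potassium channel genes called was close to the background, while 42.4% were higher and 15.2% lower. At the threshold of the study (adjusted p of 0.001 or less and a fold change of at least 2) 14 of the 33 passed, 9 of them higher and 5 lower, beside 19.8% of all genes tested. In 23 of the 33 (69.7%) the normalized counts of the genotypes did not overlap, beside 68.6% of all genes. The median log2 fold change was 0.40 over the 33 genes and 0.006 over all genes, and the median size of the change was 0.96 and 0.53 on the log2 scale. Setting the 4 genes at or under 3 counts in 1 genotype at their lower bound could not move these medians, because every bound lies beyond them. The medians of the 33 genes include 8 genes, named below, that the filter let in through 1 genotype only and that had to differ. They were not recomputed without those genes. A correction for gene length moved the median of all genes to -0.14. With it the calls over all genes split into 3331 higher and 5028 lower, in place of 4231 and 4022, and those of the potassium channel genes into 14 higher and 6 lower.

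These counts depend on which genes could be tested. Every WT library of Kcnq5, Kcnj2, Kcnj12, Kcnmb4 and Kcnip3, and every KO library of Kcnd3, Kcnh3 and Kcnu1, was under the level of the filter (10 counts at the median library size, required in at least 3 libraries), so these 8 genes entered the test only through the genotype in which they were high and had to differ. Of the other 25, 11 were called (44.0%), beside 59.8% of the 12543 genes selected in the same way. At the threshold of the study 6 of the 25 passed (24.0%), beside 17.0% of those genes, and the other 8 that passed were the genes just named. Kcnrg is among the 25 but reached that level in only 1 WT library.

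**Figure D1:**
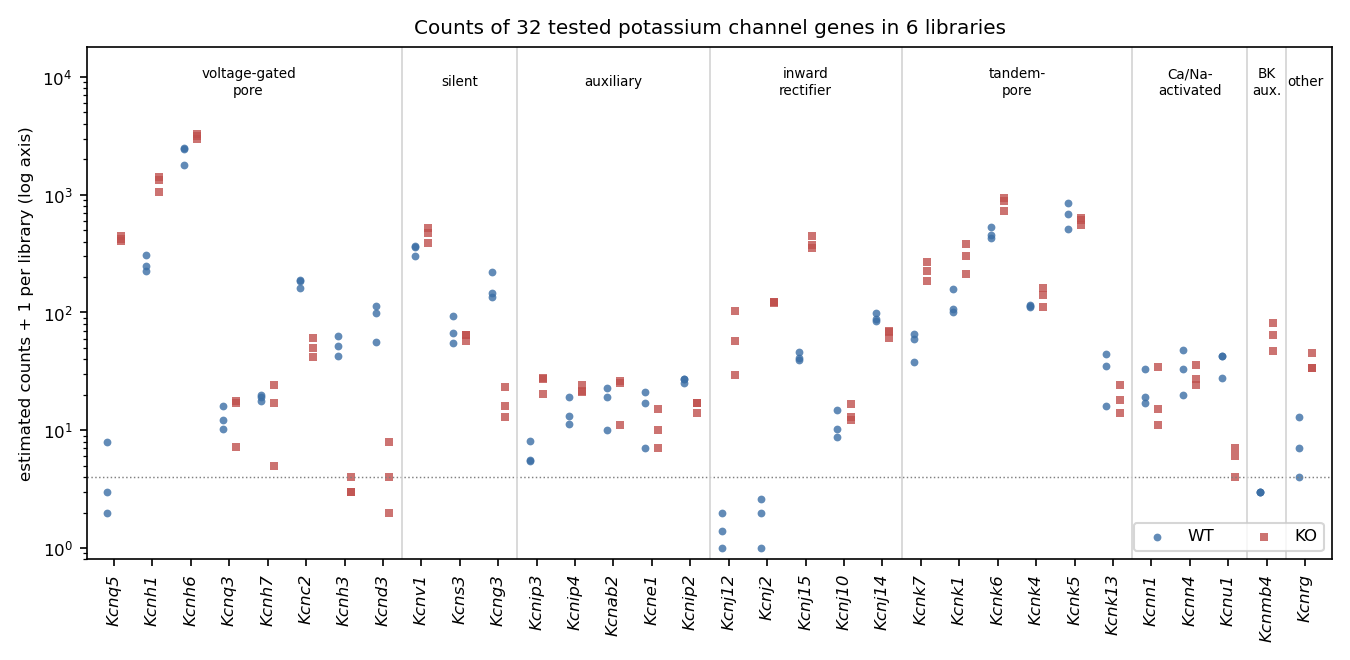
Estimated counts plus 1 (log axis) of 32 of the 33 tested potassium channel genes, 1 point for each of 3 WT (circles) and 3 KO (squares) libraries, grouped by class, with a dotted line at 3 counts. Kcnh6 is highest in all 6 libraries, and Kcnj2, Kcnj12 and Kcnmb4 lie under the line in WT and well above it in KO.

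In both genotypes the summed level came mostly from a few genes. On the TPM scale, which is per transcript length and so allows genes to be ranked within a genotype, Kcnh6 stood first with 56.4 ± 12.1 TPM in WT and 69.5 ± 4.67 TPM in KO (SD, n = 3), or 39.5% and 34.8% of the summed TPM of the 80 genes. The 5 highest genes held 70.8% in WT and 68.2% in KO, and the 10 highest 85.6% and 86.4%. Only 18 genes averaged at least 1 TPM in WT, and 18 did in KO.

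In WT, Kcnh6 was followed by Kcnk5 (20.8 ± 5.69 TPM), Kcnk6 (11.7 ± 1.10 TPM), Kcnv1 (6.64 ± 0.653 TPM) and Kcnk4 (5.46 ± 0.161 TPM), and no neighbours in this order overlapped between libraries. Kcnk4, Kcnk1 (5.38 ± 1.44 TPM) and Kcnk7 (4.93 ± 1.30 TPM) did overlap and cannot be ordered. In KO, the places after Kcnh6 were taken by Kcnk6 (17.95 ± 2.06 TPM), Kcnk7 (17.85 ± 3.54 TPM), Kcnk5 (15.5 ± 0.818 TPM) and Kcnh1 (15.4 ± 2.67 TPM), which overlapped with each other. Kcnh1 stood at rank 9 in WT and 5 in KO, Kcnj15 at rank 19 and 8, and Kcnc2 at rank 10 and 19.

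**Figure D2:**
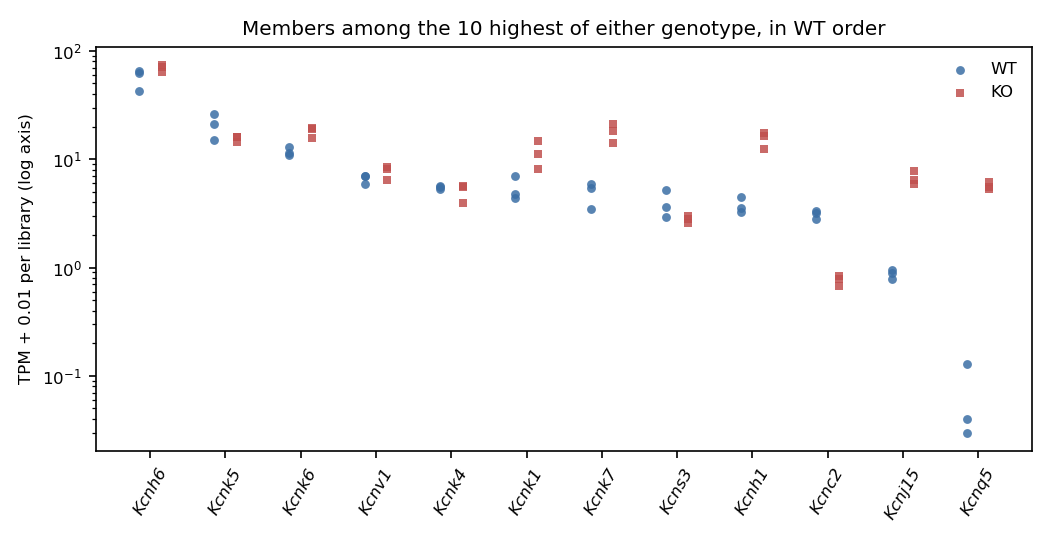
TPM plus 0.01 (log axis) in each of 3 WT (circles) and 3 KO (squares) libraries for the 12 genes among the 10 highest of either genotype, in the order of their WT mean. Kcnh6 leads in both genotypes, while Kcnq5 and Kcnj15 reach the 10 highest in KO only and Kcnc2 and Kcns3 in WT only.

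The voltage-gated pore subunits were the largest class, with 26 genes of which 9 were tested, 4 were higher, 3 were lower and 2 did not pass. Counts by class rest on few tested genes and stand beside the 62.0% called over all genes. Most of its level came from the Kcnh family. Kcnh6, a channel of the ERG subfamily related to the cardiac repolarizing channel Kcnh2, had counts of 2486.3, 2459.6 and 1773.8 in WT against 3302.4, 3176.2 and 2995.9 in KO. All KO libraries lay above all WT libraries, and the gene rose by 0.61 on the log2 scale (SE 0.129, edgeR adjusted p = 0.00354), below the 2-fold limit of the study. Kcnh1, the ether-à-go-go channel known for its expression in brain and in proliferating tumour cells, had counts of 306, 223 and 249 in WT against 1418, 1330 and 1048 in KO. It rose in every KO library, with a change of 2.40 on the log2 scale (SE 0.159, edgeR adjusted p = 7.59e-06). Kcnh3, of the ELK subfamily, went the other way, with counts of 62, 42 and 51 in WT against 2, 3 and 2 in KO. Since no KO library exceeded 3 counts, it was at least 16.0-fold lower in KO (adjusted p = 2.75e-05, edgeR). Kcnh7, another ERG channel, had between 16.6 and 18.9 counts in WT and between 4 and 23.1 counts in KO and did not pass the test. Kcnh2 had at most 5 counts in any library and was not tested.

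Kcnq5, a subunit of the M-current, which opens below the firing threshold and steadies the membrane potential, was close to the floor in WT. It had counts of 1, 7 and 2 in WT against 416, 449 and 405 in KO. The KO libraries agreed closely with each other, and the change was 7.04 on the log2 scale (SE 0.327, edgeR adjusted p = 1.48e-06), or 8.14 without WT replicate 2, which held the 7 counts. Its partner subunit in the M-current, Kcnq3, had between 9.2 and 15 counts in WT and between 6.2 and 16.8 counts in KO and did not pass.

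Kcnc2, a Shaw-related subunit that carries fast delayed-rectifier currents in rapidly firing neurons, had counts of 188, 159.4 and 185.2 in WT against 48.8, 41.1 and 60.1 in KO. It fell with a change of -1.72 on the log2 scale (SE 0.189, edgeR adjusted p = 1.03e-04), and the genotypes did not overlap. On the TPM scale it went from 3.10 ± 0.265 TPM in WT to 0.757 ± 0.0874 TPM in KO (SD, n = 3). Kcnd3, a Shal-related subunit of the transient A-type current, had counts of 98, 55 and 112 in WT against 1, 7 and 3 in KO. It fell with a change of -4.44 on the log2 scale (SE 0.517, edgeR adjusted p = 1.40e-04), or -5.28 without KO replicate 2, which held the 7 counts.

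**Figure D3:**
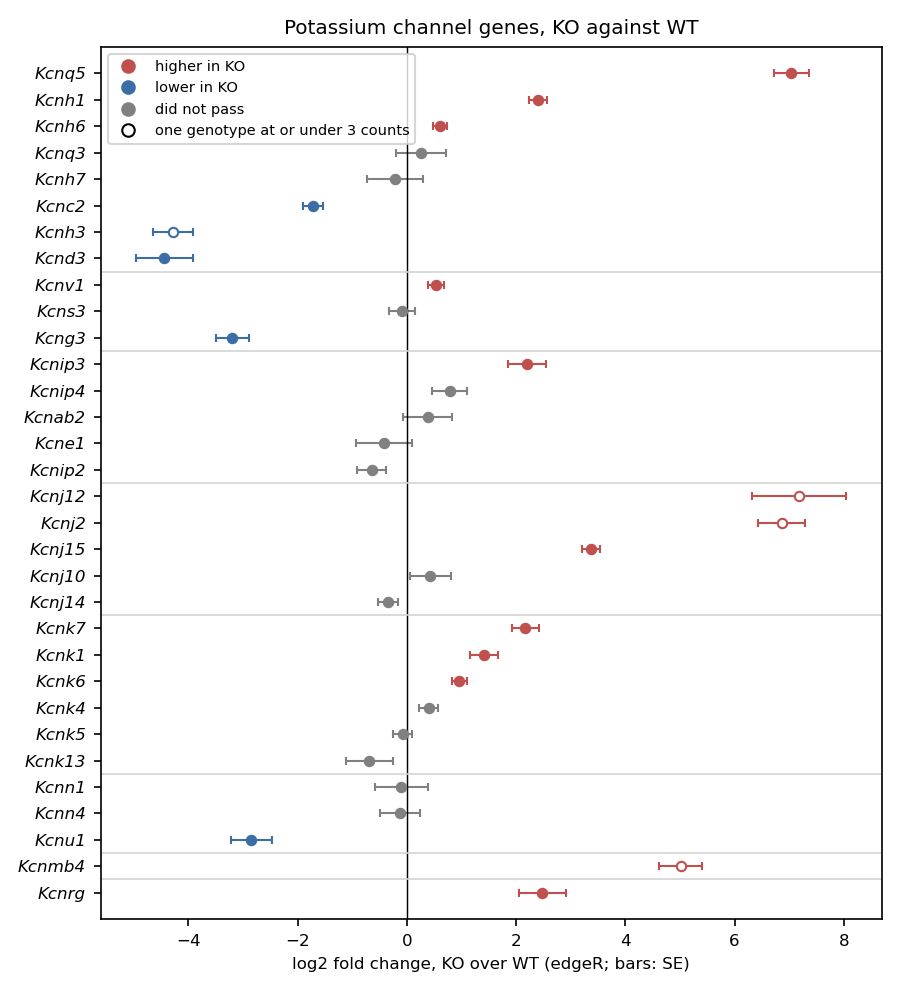
Log2 fold change of KO over WT with its SE for 32 of the 33 tested potassium channel genes, from the edgeR fit of 3 WT and 3 KO libraries, in class order. Genes higher in KO are red, genes lower in KO are blue, genes that did not pass are grey, and open circles mark the 4 genes at or under 3 counts in all libraries of 1 genotype, whose plotted value is no bound.

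Silent subunits form no channel of their own and change the properties of the voltage-gated pore subunits they join. Of 8, 3 were tested, and they showed 1 rise, 1 fall and 1 gene that did not pass. Kcnv1 had counts of 358.2, 303.3 and 367.9 in WT against 468.1, 524.3 and 389 in KO, a rise of 0.53 on the log2 scale (SE 0.143, adjusted p = 0.011, edgeR). Kcng3 had counts of 221.7, 134.2 and 144.3 in WT against 12, 15 and 22.5 in KO. It retained 10.8% of its WT level in CPM and fell with a change of -3.20 on the log2 scale (SE 0.3045, edgeR adjusted p = 4.85e-05). Kcns3, between 54.3 and 92.2 counts in WT and between 56.2 and 63.8 counts in KO, overlapped between genotypes and did not pass.

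Among the auxiliary subunits of voltage-gated channels, 5 of 10 were tested. Kcnip3, a calcium sensor that binds Kcnd channels and is also known as a transcriptional repressor, rose from between 4.5 and 7.1 counts in WT to between 19.3 and 26.7 counts in KO (log2 fold change 2.19). The other Kcnd partners, Kcnip2 with 24 to 26 counts in WT and 13 to 16 counts in KO, and Kcnip4 with 10.2 to 18.1 counts in WT and 20.2 to 23 counts in KO, did not overlap between genotypes but did not pass the test (edgeR adjusted p = 0.0638 and 0.0571). Kcnip2 passed with a correction for gene length (log2 fold change -0.84, adjusted p = 0.0227, edgeR). The cytoplasmic beta subunit Kcnab2, with 9 to 25 counts, and Kcne1, the single-span partner of Kcnq1, with 6 to 20 counts, overlapped and did not pass. Kcnq1 itself had between 1 and 3 counts in every library.

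Of the 14 inward rectifier genes, 5 were tested and 3 were higher in KO, beside 31.8% of all genes tested. None was called lower. Of the 3, Kcnj2 and Kcnj12 were near 0 in WT and entered the test only through KO. Among the untested genes of the class mean counts differed in both directions, with Kcnj1 and Kcnj13 lower in KO. Kcnj15, an inward rectifier of kidney and other epithelia, had counts of 38.4, 40 and 45.2 in WT against 375.7, 447.2 and 355.5 in KO, and it rose by 3.37 on the log2 scale (SE 0.158, edgeR adjusted p = 1.54e-06). Kcnj2, a strong inward rectifier that holds the resting potential of heart and skeletal muscle, had counts of 0, 1 and 1.6 in WT against 121.6, 122.9 and 120 in KO. It was at least 43.7-fold higher in KO (adjusted p = 5.34e-06, edgeR), with 6.11 ± 0.113 CPM in KO (SD, n = 3). Kcnj12, its close relative, had counts of 0, 1 and 0.4 in WT against 101.2, 28.5 and 55.8 in KO, and was at least 22.3-fold higher (adjusted p = 1.71e-04, edgeR). The KO libraries agreed closely for Kcnj2 and spread widely for Kcnj12. Skeletal muscle markers (Acta1, Ckm, Myh4 and Des) summed to at most 0.465 CPM in WT and 0.747 CPM in KO. Kcnj14 had between 83.8 and 97.6 counts in WT and between 59.7 and 69 counts in KO and did not pass (log2 fold change -0.35, adjusted p = 0.126, edgeR), although the counts did not overlap. Kcnj10, the rectifier of glia and kidney tubules, had between 7.8 and 15.7 counts and did not pass.

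Tandem-pore channels were the second largest class by level, with 34.7% of the summed TPM in WT and 34.3% in KO. Of 12 genes, 6 were tested, 3 were higher and none was called lower, beside 31.8% higher and 30.2% lower among all genes tested. The 3 called genes, Kcnk6, Kcnk1 and Kcnk7, belong to the TWIK group and are those with a leucine codon in the second filter, while Kcnk4, Kcnk5 and Kcnk13 have phenylalanine there and did not pass. That grouping was seen after the values were known and carries no test. Kcnk6 had counts of 424.8, 450.7 and 531.7 in WT against 878.7, 725.8 and 930.7 in KO, which gave 0.96 on the log2 scale (SE 0.136, edgeR adjusted p = 4.14e-04). Kcnk1 had counts of 106, 157 and 100 in WT against 213, 383 and 302 in KO, which gave 1.41 on the log2 scale (SE 0.249, edgeR adjusted p = 0.00132). Kcnk7, which has not been known to carry current on its own, had counts of 37, 65 and 59 in WT against 266, 226 and 183 in KO. It showed the largest rise of the class, with a change of 2.17 on the log2 scale (SE 0.2455, edgeR adjusted p = 1.19e-04).

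Kcnk5, a channel opened by alkaline conditions and the second most abundant gene in WT by TPM, had counts of 850, 691 and 507 in WT against 609, 556 and 631 in KO. The genotypes overlapped, and the log2 fold change of -0.08 (SE 0.166) did not pass. Kcnk4, the TRAAK channel gated by membrane stretch, had counts of 114.2, 112 and 109.9 in WT against 139, 161.2 and 110.8 in KO. The KO libraries spread more than the WT libraries, and the adjusted p was 0.0764 (edgeR) for a log2 fold change of 0.40, or 0.0295 for 0.53 without KO replicate 3. The same-strand gene Catsperz shares 13.1% of the exon bases of Kcnk4. Kcnk13, of the halothane-inhibited group, had between 15 and 43 counts in WT and between 13 and 23 in KO and did not pass, except without WT replicate 1 (log2 fold change -1.01, adjusted p = 0.0469, edgeR).

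Channels opened by calcium or sodium were at low levels. The large-conductance pore gene Kcnma1 had at most 2.5 counts in any library. Its relative Kcnu1, a pH-sensitive channel known from sperm, had counts of 42, 27 and 42 in WT against 5, 3 and 6 in KO, and fell with a change of -2.85 on the log2 scale (SE 0.378, edgeR adjusted p = 2.86e-04). Kcnn4, the intermediate-conductance channel, had between 19 and 47 counts in WT and between 23 and 35 in KO, and the small-conductance Kcnn1 between 16 and 31.8 in WT and between 10.1 and 33.2 in KO, and neither passed. Kcnmb4, an auxiliary beta subunit of the Kcnma1 channel, had 2 counts in each WT library and 81, 45.9 and 64 counts in KO, at least 22.9-fold higher (adjusted p = 1.90e-05, edgeR). Kcnmb4 shares 20.8% of its exon bases with the antisense gene Kcnmb4os2 and 10.7% with Kcnmb4os1. Kcnrg, a soluble protein that interferes with the assembly of voltage-gated channels, had counts of 12, 3 and 6 in WT against 33, 44 and 33 in KO. It rose with a change of 2.48 on the log2 scale (SE 0.426, edgeR adjusted p = 0.00116), or 3.09 without WT replicate 1.

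Summed over all 80 genes, the level was 142.6 ± 18.35 TPM in WT and 199.8 ± 13.8 TPM in KO, and 248.4 ± 21.5 and 441.6 ± 26.65 CPM (SD, n = 3). The inward rectifiers summed to 5.04 ± 0.335 TPM in WT and 12.5 ± 1.11 TPM in KO, and to 8.20 ± 0.881 and 34.1 ± 2.59 CPM. The silent subunits (12.6 ± 2.165 and 11.2 ± 1.38 TPM, 27.2 ± 3.79 and 27.9 ± 3.54 CPM) and the voltage-gated auxiliary subunits (3.70 ± 0.452 and 3.07 ± 0.377 TPM, 4.31 ± 0.504 and 5.05 ± 0.792 CPM) had a lower mean in KO by TPM and a higher one by CPM, and their TPM values overlapped between the genotypes. TPM placed the median of all tested genes lower, with a log2 ratio of -0.33 in KO, which lowers KO against WT on that scale.

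**Figure D4:**
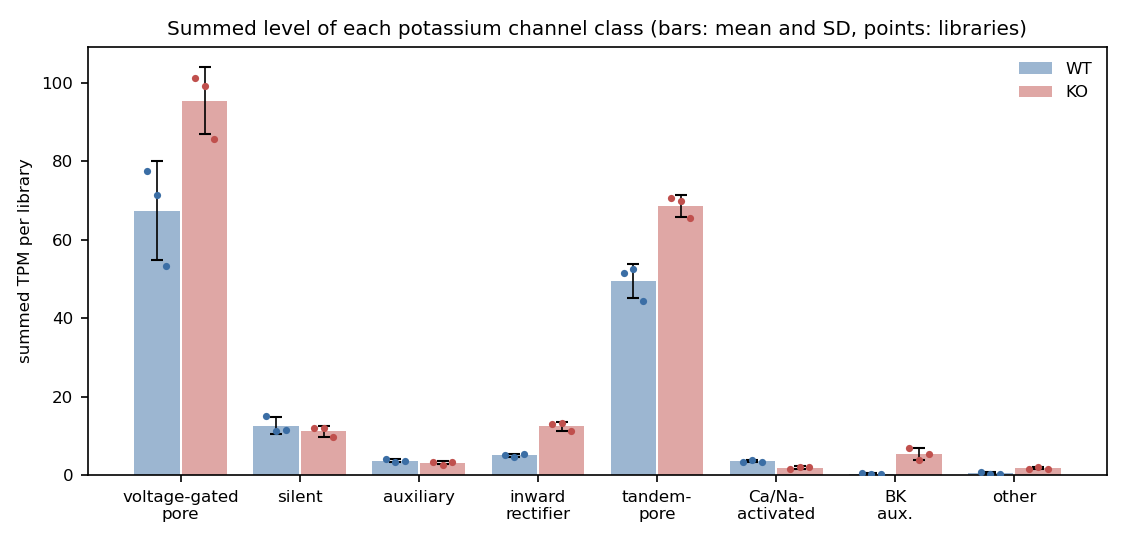
Summed TPM of each class of potassium channel genes in WT (blue) and KO (red), with bars for the mean, error bars for the SD and points for the 3 libraries of each genotype. The voltage-gated pore class (67.4 and 95.4 TPM) and the tandem-pore class (49.5 and 68.6 TPM) hold most of the level in both genotypes, and the order of the WT and KO means for silent and voltage-gated auxiliary subunits turns around on the CPM scale.

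The 27 detected genes without a test had low counts. Among the voltage-gated pore subunits, Kcnc4 had counts of 1, 0 and 0 in WT against 7, 5 and 10 in KO. Kcna2, Kcna6, Kcna7, Kcnb2, Kcnc1 and Kcnh2 had at most 7 counts. The silent subunit Kcns1 had counts of 7, 5 and 2 in WT against 23, 20 and 3 in KO. Kcnab3 had counts of 10, 8 and 12 in WT against 6, 3 and 3 in KO, and the other auxiliary subunits Kcnab1 and Kcne2 had at most 7. Among the inward rectifiers, Kcnj1, the secretory channel of the kidney tubule, had counts of 6, 6 and 11 in WT against 1, 0 and 0 in KO. Kcnj13 had counts of 19, 9 and 19 in WT against 2, 7 and 9 in KO, but shares 49.1% of its exon bases with Gigyf2 on the other strand. Kcnj4, Kcnj5, Kcnj9 and Kcnj16 had at most 8 counts, Kcnk2, Kcnk3, Kcnk9, Kcnk12 and Kcnk16 at most 6, Kcnmb1 at most 6.3 and Kcnmb3 at most 15.4. Differences at this depth rest on few reads, and without the filter Kcnc4 and Kcnj1 would pass (edgeR adjusted p = 0.00556 and 0.00691).

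The 20 genes at or under 3 counts in every library were counted as not detected, although each had some estimated counts. They were 7 voltage-gated pore subunits (Kcna1, Kcna3, Kcna4, Kcnd1, Kcnd2, Kcnh4 and Kcnq1), 4 silent subunits (Kcnf1, Kcng1, Kcng2 and Kcnv2), the auxiliary subunits Kcne1l and Kcne3, the inward rectifiers Kcnj3, Kcnj6 and Kcnj8, the tandem-pore gene Kcnk10, Kcnma1 and Kcnn2, and Kcnmb2.

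Potassium that leaves through channels is brought back by the sodium pump and by cation-chloride cotransporters, and several channels have accessory proteins outside the Kcn nomenclature. Of 22 such genes listed, 12 were tested, of which 6 were higher, 3 lower and 3 did not pass, beside 62.0% called over all genes. The beta subunits of the pump, Atp1b1 (log2 fold change 2.04) and Atp1b3 (0.48), rose. The inward cotransporter Slc12a2 fell from 612 ± 64.2 to 216.5 ± 34.6 CPM (SD, n = 3; log2 fold change -1.50, SE 0.144). Among the outward cotransporters, Slc12a7 rose (1.06), while Slc12a4 (0.26) and Slc12a5 (0.09) did not pass. Lrrc26, an accessory protein that lets the Kcnma1 channel open at low calcium, fell from 72.3 ± 11.1 to 30.7 ± 5.53 CPM (log2 fold change -1.23). Abcc9, the sulfonylurea receptor that joins inward rectifiers, rose (0.97), as did Amigo1 (0.68), a partner of Kcnb channels, and Lrrc38 (0.50) did not pass. Abcc8, Dpp6, Dpp10, Lrrc55, Atp1b2, Atp4a and Atp12a had at most 15 counts and were not tested, and Lrrc52 was not analysed here.

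Markers of other cell types also differed between the genotypes. Summed stromal markers (Col1a1, Col1a2, Col3a1, Lum, Dcn and Vim) lay between 0.687 and 2.745 CPM in WT and between 13.6 and 23.3 CPM in KO, with Lum at 0 in every WT library. Mural markers (Acta2, Pdgfrb, Rgs5 and Myh11) summed to between 1.33 and 2.84 CPM in WT and, through Acta2, to between 7.34 and 16.65 CPM in KO. Endothelial markers (Pecam1, Kdr and Tek) summed to at most 0.237 CPM in WT and 0.897 CPM in KO. The leukocyte markers summed to between 270.8 and 346.3 CPM in WT and between 259.6 and 331.2 CPM in KO. Most of that sum was Itgam, which fell from 265.6 ± 37.9 to 174.7 ± 33.7 CPM (SD, n = 3). Ptprc (0.402 ± 0.183 and 5.27 ± 0.883 CPM) and Cd74 (7.99 ± 3.03 and 64.3 ± 20.4 CPM) rose, and Lyz2, at or under 3 counts in WT, was at least 67.2-fold higher, while Cd68 did not pass and Cd3e was not tested. Neuronal and retinal markers summed to at most 1.04 CPM in WT and to between 19.7 and 32.5 CPM in KO through Tubb3, while Snap25 and Syt1 had at most 3 counts. Melanocyte markers (at most 6.98 CPM in WT and 3.51 CPM in KO) and Schwann cell markers (at most 2.79 CPM in WT and 1.71 CPM in KO) lay lower in KO. The single lacrimal and sebaceous marker in the table, Scd1, fell from between 57.5 and 139.2 to between 23.4 and 33.4 CPM. The part of these cell types in the channel differences was not tested.

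Because the deleted gene encodes a κB-binding factor, the 250 bases before the start of each gene were searched for the κB consensus of 10 letters on both strands (RefSeq, GRCm38.p6). A match was present for 8.23% of 27025 genes with a promoter entry. Of the 80 potassium channel genes 58 had an entry and 8 of these held a match (13.8%), and among those tested a match was found in 1 of 11 higher genes, 2 of 3 lower genes and 4 of 11 genes that did not pass. A match describes letters in this window and no binding. The promoters of the called genes with a match are shown with the matches in capitals. They lie 168 and 59 bases before the start of the promoter entry in Kcng3, 157 in Kcnc2 and 247 in Kcnmb4. The deposited gene coordinates start elsewhere. For Kcnc2 the deposited start, 112268380, lies upstream of the whole window, so the match is inside the gene as counted. For Kcng3 and Kcnmb4 it lies within the window, at 83631993 and 116473542. The Kcng3 match at 59 bases is therefore also inside the gene as counted, while its match at 168 bases and that of Kcnmb4 lie upstream.
Kcng3, chr17:83631896-83632145, minus strand: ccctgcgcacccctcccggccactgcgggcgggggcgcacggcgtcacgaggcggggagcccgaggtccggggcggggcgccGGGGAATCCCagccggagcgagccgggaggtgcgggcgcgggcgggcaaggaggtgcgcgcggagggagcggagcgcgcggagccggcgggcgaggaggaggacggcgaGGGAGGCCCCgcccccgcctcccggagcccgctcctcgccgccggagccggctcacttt
Kcnc2, chr10:112271023-112271272, plus strand: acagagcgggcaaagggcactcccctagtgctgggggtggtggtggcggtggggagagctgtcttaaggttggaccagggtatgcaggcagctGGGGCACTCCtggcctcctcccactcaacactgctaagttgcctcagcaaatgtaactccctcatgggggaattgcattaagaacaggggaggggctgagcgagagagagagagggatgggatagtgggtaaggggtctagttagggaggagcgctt
Kcnmb4, chr10:116473524-116473773, minus strand: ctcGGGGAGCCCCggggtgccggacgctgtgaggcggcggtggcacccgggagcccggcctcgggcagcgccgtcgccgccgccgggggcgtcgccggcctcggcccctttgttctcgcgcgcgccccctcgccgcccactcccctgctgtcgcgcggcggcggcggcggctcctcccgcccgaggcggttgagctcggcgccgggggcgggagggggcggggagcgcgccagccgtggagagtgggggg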

How the data were processed

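RNA from the separated corneal epithelium of 3 WT and 3 KO mice was sequenced. The study's methods give rRNA depletion and short single-end reads on a BGISEQ instrument, while the labels name an Illumina kit. The authors used SOAPnuke to filter reads, Bowtie2 2.2.5 to align them and RSEM 1.2.12 to estimate gene levels. The deposited table holds, for each gene and library, estimated counts (expected counts of RSEM, not normalized), FPKM and TPM, and also the authors' own fold changes and p-values, which were not used. The deposited FPKM served only in alternatives, and the deposited TPM only for levels. The labels' processing notes name mm9, but the chromosome accessions of the table are those of GRCm38. Strand use in counting was not given in the sources used here. RSEM shares reads among similar genes, and 19 of the 33 tested potassium channel genes had counts that were not whole.

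Estimated counts were rounded and tested over the whole table with edgeR 4.0.16 in R 4.3.3 (TMM, filterByExpr, quasi-likelihood F test, no covariate besides genotype). P-values were adjusted by Benjamini-Hochberg across 13305 genes. The SE was derived from F, as the absolute log2 change over its square root. CPM values carry the TMM factors. A fold against a genotype at or under 3 counts in all libraries is a lower bound, the mean CPM of the other genotype over the mean CPM of 3 counts. The test was tried on simulated data. Alternatives were RLE factors, total counts, DESeq2 1.42.0, other filters, limma 3.58.1 on log2(FPKM + 1) and log2(FPKM + 0.1), a length correction, the replicate number as a block and leaving out each library. Levels per library are printed for genes with a mean of at least 100 counts in either genotype and for further called genes with at least 30 in the higher one. Some genes and sequences that this rule covers are counted but not reported here. Classes follow the symbols. The genes and lists were chosen with earlier results of these data known. Exon overlaps and filter codons came from GENCODE M21. Python 3.11.15, pandas 2.3.3, numpy 2.4.6 and matplotlib 3.10.9 were used.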

Additional observations from a re-analysis of the deposited data

How the results depend on the processing

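All 19 potassium channel genes called by edgeR were called, in the same direction, in each alternative that tested them (14 or 15 of 15 for each gene). For the 8 of them that entered only through 1 genotype, this agreement carries no weight, since under the same filter they had to differ. The number called was 12 of 16 tested (10 higher, 2 lower) with a mean count of at least 50, where fewer genes are tested, 25 of 80 without a filter, 19 with DESeq2 and with RLE factors, 20 with total counts and with the length correction, and 21 and 20 with limma on log2(FPKM + 1) and log2(FPKM + 0.1). Leaving out 1 library gave between 19 and 22. The replicate number was also entered as a replicate block, although the numbers count different animals and same-numbered libraries did not deviate together (correlations of 0.0345, -0.00998 and 0.0606). With the block 19 were called and no call changed. Over all genes the alternatives called between 7100 and 8714. Genes that did not pass changed direction when 1 library was left out, with log2 fold changes ranging from -0.73 to 0.23 for Kcnh7, from -0.23 to 0.11 for Kcnk5, from -0.76 to 0.27 for Kcnn1, from -0.39 to 0.24 for Kcnn4 and from -0.23 to 0.14 for Kcns3. Kcnip2 passed in 4 alternatives, and Kcnip4, Kcnj14, Kcnk13 and Kcnk4 in 1 each. The FPKM scale with a pseudocount understates low genes, so that Kcnq5 had a log2 fold change of 2.01 with a pseudocount of 1. In CPM the summed level over all 80 genes was 1.78 times as high in KO as in WT. By TPM the rise was smaller, from a mean of 142.6 in WT to 199.8 in KO. Genes with few counts are limited by depth, at a floor of 0.137 to 0.152 CPM.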
